A study of Mus musculus with 12 samples.

Results

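Complement genes were examined in lactating mammary glands of Btn1a1 knockout and wild-type mice. Btn1a1 encodes butyrophilin, a membrane protein of the milk fat globule. The set holds C4b, C3, C2, Cfb, Cfi, C1ra, Serping1, Cd55 and Cd59a, taken by symbol from the deposited table of 11834 genes. Of these 9 genes, 8 are in the table, and Cfi, whose product cleaves C3b and C4b, is not analysed here. The members were chosen by the measured log2 difference between knockout and wild-type glands together with their role, so that difference is given for them as a description, without a test. Where members past the threshold of the fit across all genes are counted, the count is for scale only.

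The knockout (KO) group was 7 mice of genotype Btn1a1-/- and the wild-type (WT) group 5 mice, all C57BL/6 and in lactation 1, with 1 polyA RNA library per mouse. Glands were taken on day 10 from 5 KO and 3 WT mice. The other glands were those of KO replicate 3 on day 8, KO replicate 4 on day 11, WT replicate 2 on day 9 and WT replicate 3 on day 11. Per the labels, mutant mice came from heterozygous pairs kept apart from the wild-type breeding cages, and 2 diets were in use without a record of which mouse had which, so a part of breeding line or diet in a difference cannot be told apart from genotype. The genotype label gives the loss of the gene in the whole animal, not in 1 cell type.

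Complement is a cascade of plasma and tissue proteins that marks surfaces for removal. The classical route starts with C1q bound to a target and the proteases C1r and C1s, which cleave C4 and C2. The alternative route uses factor B, encoded by Cfb. Both build an enzyme that cleaves C3, the hub of the cascade, and its fragments attach to surfaces, recruit phagocytes and lead to a membrane pore. Host cells limit this with soluble inhibitors such as the C1 inhibitor (Serping1) and with membrane proteins such as Cd55, which breaks up the C3-cleaving enzyme, and Cd59a, which blocks the pore. The liver makes most plasma complement, while epithelial cells, fibroblasts and macrophages also transcribe these genes, and milk contains complement proteins.

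The targeted gene was at 5.63 ± 0.30 log2 CPM in KO libraries and 11.07 ± 0.09 in WT libraries (SD, n = 7 and n = 5), which left 2.35% of the WT level. CPM expresses a gene's reads relative to the total of its library, and the deposited values look quantile-normalized. A value then follows the gene's rank in its library, and Btn1a1 held the same value, 11.03 log2 CPM, in WT replicates 1, 2, 4 and 5. Read totals per library are not in the table, so depth is unknown. All 9 markers of milk-secreting cells were measured, with summed levels from 426200 to 456800 CPM in KO and from 453700 to 455200 CPM in WT. Quantile normalization gives equal ranks nearly equal values in every library, so sums of such abundant genes are largely fixed by it. These sums cannot show whether the share of milk-secreting cells differed. Libraries stood apart in markers of other tissues. The summed level of 10 skeletal muscle markers ran from 81.5 to 1336 CPM in KO and from 57.0 to 378 CPM in WT, with KO replicate 4 highest and WT replicate 1 lowest. The sum of 10 fibroblast markers ran from 159 to 416 CPM in KO and from 153 to 223 CPM in WT, with KO replicate 4 highest, KO replicate 1 next among KO, and WT replicate 1 lowest. The sum of 9 measured macrophage markers ran from 56.4 to 111 CPM in KO and from 48.5 to 72.8 CPM in WT. KO replicates 4 and 1 were highest there too. By limma, 2 of the 9 macrophage markers (Cd68 and Cx3cr1), 1 of 10 fibroblast markers (Dpt) and 0 of 10 muscle markers rose. Of all genes, 4.84% were called higher in KO. None of the 9 listed neutrophil markers and 1 of 10 hepatocyte markers, Cyp2e1, was in the table, so Alb and other defining liver markers are not analysed here.

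The promoters of C3 and Cd59a are shown because C3 had the largest SD of the members among KO glands and Cd59a is, beside C4b, the other member whose KO and WT libraries did not overlap. Each runs from 250 bases before to 50 after the gene start (RefSeq, GRCm38.p6), at chr17:57228087-57228386 on the minus strand for C3 and chr2:104095551-104095850 on the plus strand for Cd59a. Of the 8 measured members, 4 had a promoter in the RefSeq table, the others being Cd55 and C1ra. Capitals mark matches to the motifs searched.
C3: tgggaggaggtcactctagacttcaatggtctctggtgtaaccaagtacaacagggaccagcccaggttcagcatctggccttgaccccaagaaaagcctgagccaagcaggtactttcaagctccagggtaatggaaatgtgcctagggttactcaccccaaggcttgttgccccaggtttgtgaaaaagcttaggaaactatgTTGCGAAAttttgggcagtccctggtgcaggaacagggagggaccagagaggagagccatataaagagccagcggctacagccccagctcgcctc
Cd59a: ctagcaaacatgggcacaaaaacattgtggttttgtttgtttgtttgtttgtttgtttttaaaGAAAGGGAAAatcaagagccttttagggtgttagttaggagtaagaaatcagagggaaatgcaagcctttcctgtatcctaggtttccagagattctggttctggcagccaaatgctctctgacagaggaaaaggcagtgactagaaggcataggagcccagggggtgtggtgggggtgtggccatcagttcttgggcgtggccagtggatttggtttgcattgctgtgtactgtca

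Motifs were searched on both strands, and no 2 matches overlapped. The letters TTGCNNAA, a core of C/EBP sites, matched at bases -45 to -38 of C3, counted from the gene start. C/EBP factors are known to act on the C3 gene. They also matched at bases 16 to 23 of C1ra, and 10.8% of all 32851 promoters of this length hold them. The letters GAAA, any 2 bases and GAAA, a form of the interferon response element, matched at bases -187 to -178 of Cd59a and is held by 3.44% of promoters. TTCNNNGAA, the Stat element, matched at bases 32 to 40 of C1ra and is held by 8.30%. The letters GGG, any 2 bases and TTTCC, a form of the NF-kB element, matched in none of the 4 promoters and is held by 1.63% of all. Cd55 had no match to any of the 4 motifs.

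In the early classical route, C4b stood apart from the other members. C4b encodes complement C4, which C1s cleaves so that it can bind covalently to a target. It was at 7.90, 8.52, 8.39, 7.44, 7.50, 7.09 and 6.42 log2 CPM in KO replicates 1 to 7, against 2.19, 3.59, 5.18, 5.13 and 3.64 in WT replicates 1 to 5. Every KO library lay above every WT library, and KO replicates 2 and 3 were highest. The means were 7.61 ± 0.74 in KO and 3.94 ± 1.25 in WT (SD), a log2 change of 3.67 (standard error, SE, 0.55), or 12.7-fold. WT glands were far from uniform for C4b, with 4.55 CPM in the lowest and 36.2 CPM in the highest, while KO glands ran from 85.3 to 368 CPM. The change was 3.23 without WT replicate 1, 3.83 with day 10 libraries alone, and 3.25 without both KO replicate 4 and WT replicate 1. C4a, a close copy of C4b, is not analysed here. Of the 75-base stretches in annotated C4b transcripts, 22.7% also occur in C4a transcripts, so part of the reads could be assigned to either gene.

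C1ra encodes the protease C1r, which activates C1s. It was at 2.83, 2.38, 1.99, 2.73, 2.43, 1.98 and 2.19 log2 CPM in KO replicates 1 to 7, against 1.59, 2.25, 2.66, 2.31 and 2.20 in WT replicates 1 to 5. The groups overlapped, with WT replicate 1 below all others. The log2 change of 0.16 (SE 0.19) was 0.007 without WT replicate 1. The copy C1rb shares 40.1% of the 75-base stretches of C1ra, so the split between them is uncertain.

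C2 encodes the protease that pairs with C4 in the classical C3-cleaving enzyme. It was at 1.85, 1.59, 0.88, 1.87, 1.21, 0.92 and 0.97 log2 CPM in KO replicates 1 to 7, against 0.34, 0.94, 1.31, 0.68 and 0.92 in WT replicates 1 to 5. KO replicates 1, 2 and 4 lay above all WT libraries and the other 4 among them. The log2 change was 0.49 (SE 0.22). It was 0.27 without both KO replicate 4 and WT replicate 1, 0.15 with the macrophage marker score as a covariate and 0.07 with the fibroblast score.

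C3, the hub on which all routes meet, was at 7.61, 6.28, 5.70, 8.49, 5.75, 4.95 and 5.46 log2 CPM in KO replicates 1 to 7, against 5.35, 5.84, 5.63, 5.56 and 5.34 in WT replicates 1 to 5. KO replicates 4 and 1 were far above every WT library, KO replicate 2 was somewhat above, 3 KO libraries lay within the WT range and KO replicate 6 lay below it. The means were 6.32 ± 1.27 in KO and 5.55 ± 0.21 in WT (SD). The SD among KO glands was 6.10 times that among WT glands and larger than that of 98.9% of all genes among KO glands. The log2 change of 0.78 (SE 0.56) was 0.41 without KO replicate 4, 0.56 without KO replicate 1 and 0.36 without both KO replicate 4 and WT replicate 1. KO replicate 4 was taken on day 11 and KO replicate 1 on day 10.

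Cfb encodes factor B, the alternative-route partner of C3. It was at 3.29, 2.51, 2.75, 3.49, 2.33, 1.85 and 1.78 log2 CPM in KO replicates 1 to 7, against 1.19, 1.97, 1.62, 1.42 and 2.26 in WT replicates 1 to 5. In KO, 5 of 7 libraries lay above all WT libraries, KO replicates 4 and 1 being highest, and KO replicates 6 and 7 lay within the WT range. The log2 change was 0.88 (SE 0.30). It was 0.73 with day 10 libraries alone, 0.60 without both KO replicate 4 and WT replicate 1, 0.44 with the fibroblast score and 0.12 with the macrophage score. Annotated exons of Cfb and C2 overlap by 2246 and 1656 bases with those of Gm20547 on the same strand, so their counts depend on whether that gene was in the annotation the authors used, which the sources do not name.

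**Figure D1:**
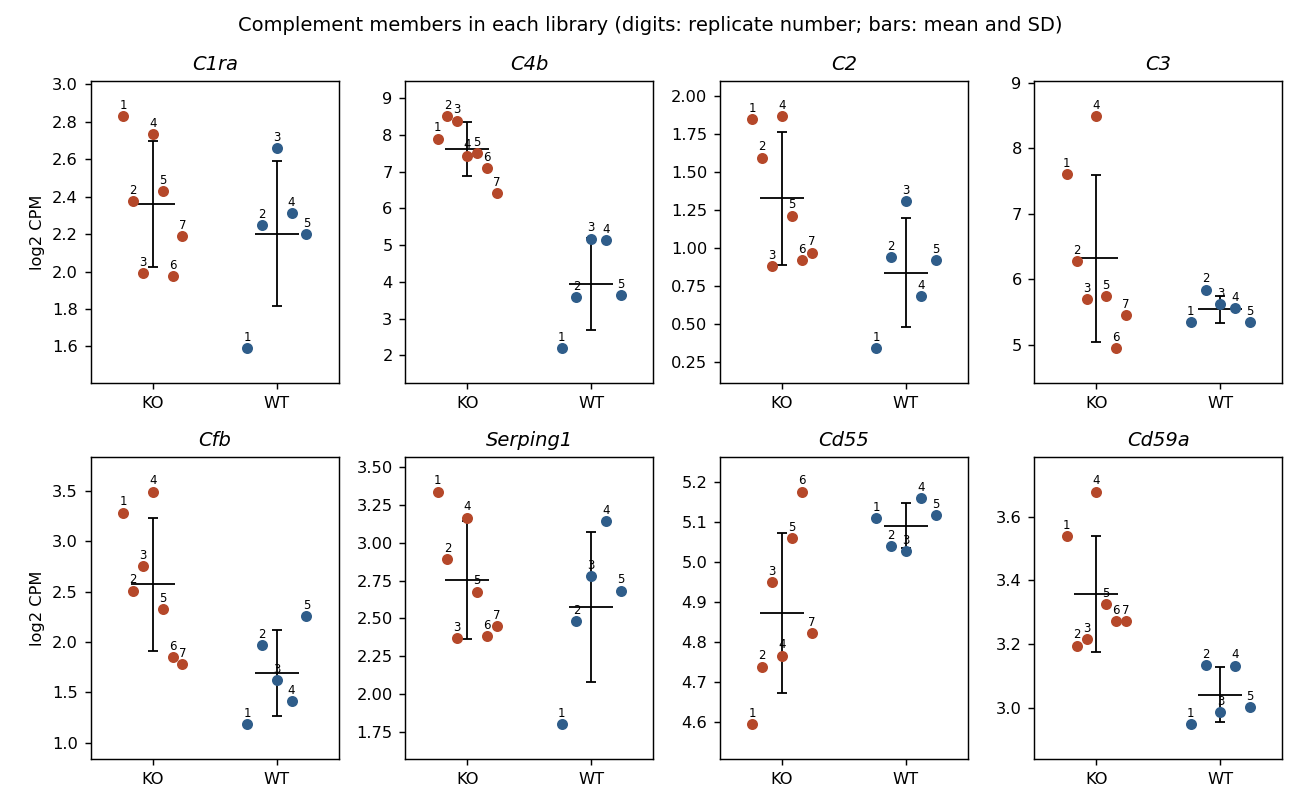
Each panel plots 1 of the 8 measured members in log2 CPM (vertical axis) for the 7 KO and 5 WT libraries, with replicate numbers beside the points and the mean and SD as bars. C4b and Cd59a separate the groups, while C3 in KO runs from 4.95 to 8.49 around WT libraries between 5.34 and 5.84.

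Among the regulators, Serping1 encodes the inhibitor of C1r and C1s. It was at 3.339, 2.89, 2.37, 3.17, 2.68, 2.38 and 2.45 log2 CPM in KO replicates 1 to 7, against 1.80, 2.48, 2.78, 3.14 and 2.68 in WT replicates 1 to 5. The groups overlapped over most of their range. The log2 change of 0.18 (SE 0.23) was -0.02 without WT replicate 1.

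Cd55, the membrane protein that dismantles the C3-cleaving enzymes, was the only member measured whose mean was lower in KO. It was at 4.59, 4.74, 4.95, 4.77, 5.06, 5.18 and 4.82 log2 CPM in KO replicates 1 to 7, against 5.11, 5.04, 5.03, 5.16 and 5.12 in WT replicates 1 to 5. KO replicates 1, 2, 3, 4 and 7 lay below all WT libraries and KO replicate 6 above them. The log2 change was -0.22 (SE 0.09).

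Cd59a, the membrane inhibitor of the pore, was at 3.54, 3.20, 3.22, 3.68, 3.32, 3.27 and 3.27 log2 CPM in KO replicates 1 to 7, against 2.95, 3.13, 2.99, 3.13 and 3.00 in WT replicates 1 to 5. No WT library reached the lowest KO library, although the margin was small. The log2 change of 0.32 (SE 0.09) is 1.25-fold, and was 0.19 with either the macrophage or the fibroblast score. The copies Cd55b and Cd59b share 5.53% of the stretches of Cd55 and 1.66% of those of Cd59a.

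In the limma fit across all genes, 2 of the 8 members, C4b and Cd59a, had an adjusted p under 0.05, both higher in KO, where 9.36% of all genes were called, with 4.84% above and 4.52% below WT. For the same 2 members the groups did not overlap, where the same held for 5.43% of all genes, 2.69% with KO above WT and 2.74% with KO below. Nothing is read from these counts, since the members were chosen with this contrast in view. The authors' deposited table gives log2 changes of 3.72 for C4b, 0.78 for C3, 0.88 for Cfb and 0.32 for Cd59a.

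Most members shared their 2 highest KO libraries, and most shared their lowest WT library. C4b shared only the lowest WT library. KO replicates 1 and 4 were the 2 highest KO libraries for 6 of the 8 members, C3, C2, Cfb, C1ra, Serping1 and Cd59a. The same held for 7 of 22 other measured complement genes and for 6.69% of all genes. For C4b the 2 highest were KO replicates 2 and 3, and for Cd55 KO replicate 1 was lowest. WT replicate 1 was the lowest WT library for 6 members, C4b, C2, Cfb, C1ra, Serping1 and Cd59a. It was also lowest for 7 of those 22 other genes and for 16.9% of all genes. The same libraries were at the ends of the fibroblast marker sums, with 264 CPM in KO replicate 1, 416 CPM in KO replicate 4 and 153 CPM in WT replicate 1. In skeletal muscle marker sums they held 441, 1336 and 57.0 CPM. In adipocyte marker sums KO replicates 4 and 1 were highest among KO, at 513.5 and 410.5 CPM. WT replicate 1, at 293.4 CPM, was not the lowest WT library there. The part of these tissues in the members' values was not tested. Fits with marker scores, with their p-values and counts, are given for description only, because the scores themselves averaged higher in KO. The differences were 0.25 for the macrophage, 0.34 for the fibroblast and 1.15 for the skeletal muscle score on the log2 scale. Such a fit takes up part of the genotype difference and cannot separate it from tissue share. With the fibroblast score as a covariate the log2 change of C3 was -0.20 and that of C4b 3.16, and with the macrophage score -0.40 and 3.08. The fits with these scores called 1.48% and 0.101% of all genes. In bulk tissue, a change in the number of cells of a type and a change in RNA per cell cannot be told apart.

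**Figure D2:**
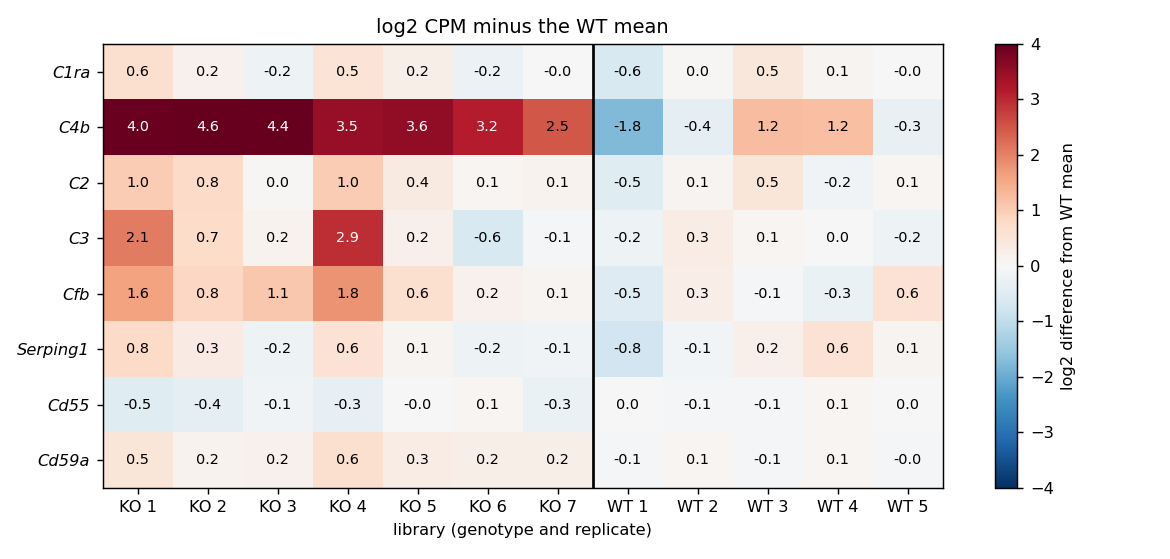
Rows are the 8 measured members and columns the 12 libraries, KO left of WT, and each cell gives log2 CPM minus the WT mean. The KO cells of C4b are all well above 0, whereas C3, C2 and Cfb are highest in KO replicates 1 and 4.

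Levels between genes were compared per kb of annotated exon. In KO, C4b averaged 38.2 ± 18.2 CPM per kb and C3 22.6 ± 23.5, followed by Cd55 (6.08 ± 0.86), Cd59a (5.70 ± 0.76), Serping1 (3.00 ± 0.84), Cfb (2.30 ± 1.06), C1ra (1.77 ± 0.42) and C2 (0.67 ± 0.21, all SD, n = 7). In WT, C3 was first at 9.16 ± 1.35 CPM per kb, followed by Cd55 (7.02 ± 0.27), Cd59a (4.55 ± 0.27), C4b (3.52 ± 2.56), Serping1 (2.68 ± 0.84), C1ra (1.59 ± 0.40), Cfb (1.18 ± 0.36) and C2 (0.47 ± 0.12, all SD, n = 5). C4b was thus first in KO and in WT below C3, Cd55 and Cd59a, where it did not differ from Cd59a or Serping1 beyond its spread. C3 and Cd55, with 5 of 5 WT libraries in the same order, kept their order in 6 of 7 KO libraries. Cd55 and Cd59a in KO, and Cfb and C1ra in both groups, were within their spread of each other.

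The balance of C4b and C3 turned between the groups, which is not separate from the contrast by which C4b was chosen. Per kb, the level of C4b over that of C3 was 1.11, 4.28, 5.84, 0.44, 3.04, 4.00 and 1.75 in KO replicates 1 to 7, against 0.10, 0.19, 0.66, 0.67 and 0.28 in WT replicates 1 to 5. C4b was above C3 in 6 of 7 KO libraries and in none of the 5 WT libraries. The exception, KO replicate 4, had 30.5 CPM per kb of C4b beside 70.0 of C3.

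**Figure D3:**
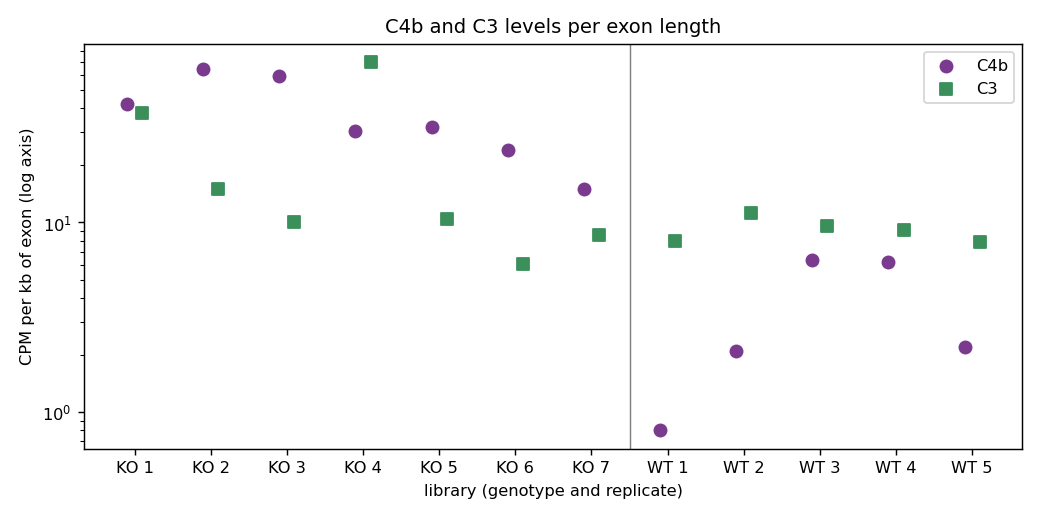
Points give the level of C4b (circles) and C3 (squares) in CPM per kb of exon on a log axis for each library, KO left of WT. C4b lies above C3 in each KO library except KO replicate 4 and below it in each WT library.

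Genes whose pattern over the 12 libraries was nearest to each of these were found by root mean square distance of centred log2 CPM, among 9282 other genes. The distance spans both groups, so for C4b it favours genes with a like difference between KO and WT. The log2 changes were 4.21 for Orm2, 3.33 for Mt2 and 3.21 for Slc5a8. Likeness to C4b is thus not separate from the contrast by which C4b was chosen. Nearest to C4b were Orm2, an acute-phase plasma glycoprotein (distance 0.51), Mt2, a metallothionein (0.77), and Slc5a8, a monocarboxylate transporter (0.80), where the SD of C4b itself over the 12 libraries was 2.01. Orm2 averaged 7.24 ± 1.06 log2 CPM in KO and 3.03 ± 1.47 in WT (SD). All 3 genes were highest in KO replicate 2, as C4b was. They were next highest in KO replicate 1, whereas C4b was next highest in KO replicate 3. Nearest to C3 were Armcx4 (0.38), Fam3c, a secreted cytokine-like protein (0.39), and Ggt5, a gamma-glutamyltransferase family member (0.54), where the SD of C3 was 0.98. All 3 were highest in KO replicate 4, and Armcx4 and Fam3c were next highest in KO replicate 1. Fam3c averaged 1.74 ± 1.03 log2 CPM in KO and 0.70 ± 0.07 in WT (SD).

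The rest of the pathway was taken by role and not by how it moved, although C1qb was known beforehand to be called. Of 56 other listed genes 22 were measured, and 4 rose and 2 fell in KO, 27.3% where 9.36% of all genes were called. The median log2 change of the 22 was 0.11, against -0.03 for all genes. In the classical route 3 of 6 rose. C1rl, which encodes a protease related to C1r, was at 1.70 ± 0.24 log2 CPM in KO and 0.80 ± 0.39 in WT (SD), a log2 change of 0.90 (SE 0.18, limma, adjusted p = 0.00831), without overlap of the groups. C1qb and C1qa, chains of the recognition protein C1q, which macrophages make, rose by 0.46 (SE 0.11, limma, adjusted p = 0.0201) and 0.47 (SE 0.13, limma, adjusted p = 0.0344). With the macrophage score as a covariate the log2 changes were 0.17 for C1qb, 0.14 for C1qa and 0.04 for C1qc (limma, adjusted p of 0.493, 0.673 and 0.918). That fit called 0.101% of all genes, and the part of macrophages in these changes was not tested. C1qc, the third chain, had a log2 change of 0.34 (SE 0.11, limma, adjusted p = 0.0729) and was called without KO replicate 6 or without WT replicate 5 (limma, adjusted p from 0.0274). The call of C1qb ended without WT replicate 1 or 3 (limma, adjusted p up to 0.0595), and that of C1qa without any 1 of WT replicates 1, 2, 3 and 5 or KO replicates 1 to 5 (up to 0.0942). The summed macrophage marker level stood between 56.4 and 111 CPM in KO and between 48.5 and 72.8 CPM in WT. C1s1, the protease that C1r activates, was at 3.27 ± 0.34 in KO and 2.91 ± 0.43 in WT (log2 change 0.36, SE 0.20, and 0.17 without WT replicate 1 or 0.09 without both KO replicate 4 and WT replicate 1), and its related gene C1s2 was at 0.61 ± 0.52 in KO and 1.25 ± 0.23 in WT (log2 change -0.64, SE 0.23). Neither passed the test (limma, adjusted p of 0.259 and 0.0981).

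Of the lectin route 2 of 9 genes were measured. Fcna, a ficolin that recognizes sugars on microbes, fell to 1.85 ± 0.24 log2 CPM in KO, against 2.48 ± 0.18 in WT (SD), a log2 change of -0.62 (SE 0.13, limma, adjusted p = 0.0105), and the highest KO library, at 2.11, was below the lowest WT library, at 2.24. Cfd, the protease of the alternative route that adipocytes secrete, was at 6.61 ± 0.34 in KO and 6.84 ± 0.39 in WT (log2 change -0.24, SE 0.19, limma, adjusted p = 0.453). None of the 7 terminal genes, from C5 (Hc) to C9, was in the table, so the pore itself is not analysed here.

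Among regulators outside the set, Clu, which encodes clusterin, a chaperone that binds the forming pore, rose to 10.26 ± 0.52 log2 CPM in KO, against 9.31 ± 0.16 in WT (SD). Its log2 change was 0.95 (SE 0.21, limma, adjusted p = 0.0166), and the KO libraries, from 9.52 to 11.23, all lay above the WT libraries, from 9.07 to 9.45. Susd4, a membrane protein described as a complement inhibitor in human cells, fell by 1.21 on the log2 scale (SE 0.27, limma, adjusted p = 0.0136), to -0.22 ± 0.56 in KO against 1.00 ± 0.32 in WT, again with no overlap. Susd4 was low, with a mean of 0.91 CPM in KO and 2.03 CPM in WT, and the filter at 1 log2 CPM removed it. Cr1l, the rodent membrane regulator Crry, had a log2 change of -0.12 (SE 0.06). The calls of C1rl, Fcna, Clu and Susd4 held without any 1 library. With day 10 libraries alone, C1rl kept its call (log2 change 1.25, limma, adjusted p = 0.0115) and Fcna, Clu and Susd4 did not (log2 changes of -0.61, 0.91 and -1.10, adjusted p of 0.0515, 0.152 and 0.110). Without both KO replicate 4 and WT replicate 1, C1rl, Fcna and Susd4 were called and C1qa, C1qb and Clu were not, 3 of 22 where 3.74% of all genes were called.

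Of 8 measured receptors and binding partners 0 were called by limma. Only 1, Calr, had an unadjusted p under 0.05, which 3145 of all 11834 genes had. Their log2 changes ran from -0.03 to 0.45, the highest being C3ar1, the receptor of the C3a fragment (1.03 ± 0.64 in KO and 0.58 ± 0.22 in WT, SE 0.27, limma, adjusted p = 0.305). Of 8 transcription factors known to act on complement genes, 2 rose, where 9.36% of all genes were called. Rela, an NF-kB subunit, had a log2 change of 0.38 (SE 0.11, limma, adjusted p = 0.0466) and Stat3 one of 0.50 (SE 0.14, limma, adjusted p = 0.0406). The call of Rela ended without any 1 of KO replicates 1, 2, 3, 6 and 7 or WT replicates 1 to 4 (limma, adjusted p up to 0.123), and that of Stat3 without any 1 of KO replicates 1 to 4 or WT replicates 1, 2, 3 and 5 (up to 0.102). With day 10 libraries alone neither was called (log2 changes of 0.48 and 0.35, limma, adjusted p of 0.0546 and 0.274), nor with the macrophage score (0.46 and 0.24, limma, adjusted p of 0.227 and 0.575). Those 2 settings called 2.26% and 0.101% of all genes. Rela was also not called with lactation day as a covariate (limma, adjusted p = 0.0522). Cebpb and Cebpd, C/EBP factors of inflammation, had log2 changes of 0.06 (SE 0.25) and 0.20 (SE 0.23).

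**Figure D4:**
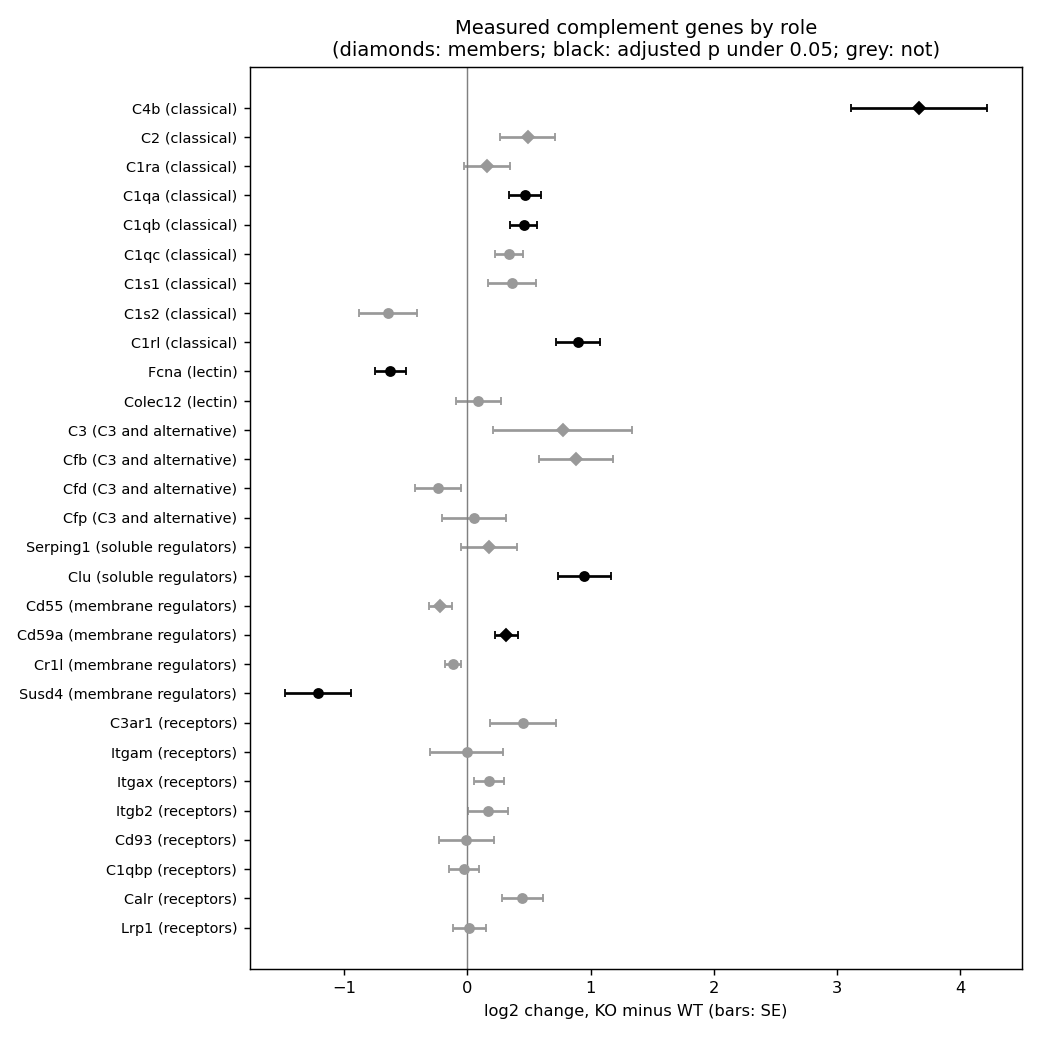
Points give the log2 change of KO minus WT with its SE for measured complement genes by role, diamonds for members and circles for the other genes, black where the adjusted p is under 0.05. C4b, at 3.67, lies far to the right of all others, which run from -1.21 to 0.95.

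C4b, Cfb and C2 lie together in the class III part of the mouse major histocompatibility complex, on chromosome 17 between 34728380 and 34898265 (mm10, GENCODE M21), all on the minus strand. Cfb lies 85 bases from C2, and C4b lies apart from Cfb with C4a between them. The other members lie elsewhere, C3 on chromosome 17 from 57203970 to 57228136, C1ra on chromosome 6 from 124512405 to 124523443, Serping1 and Cd59a on chromosome 2 from 84765387 to 84775444 and from 104095801 to 104115354, and Cd55 on chromosome 1 from 130439027 to 130462744. Within 100 kb of the cluster 15 other genes were measured, of which 1 rose and 1 fell, 13.3% where 9.36% of all genes were called. Their log2 changes ran from -0.53 to 0.65 with a median of 0.13, so the difference at C4b was not shared by the measured genes around it. The gene that rose, 1110038B12Rik, had a log2 change of 0.65 (SE 0.10, limma, adjusted p = 0.00308). Skiv2l, an RNA helicase of the exosome, fell by 0.30 (SE 0.08, limma, adjusted p = 0.0263), a call that ended without any 1 of KO replicate 1 and WT replicates 1, 2 and 3 (up to 0.0738).

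**Figure D5:**
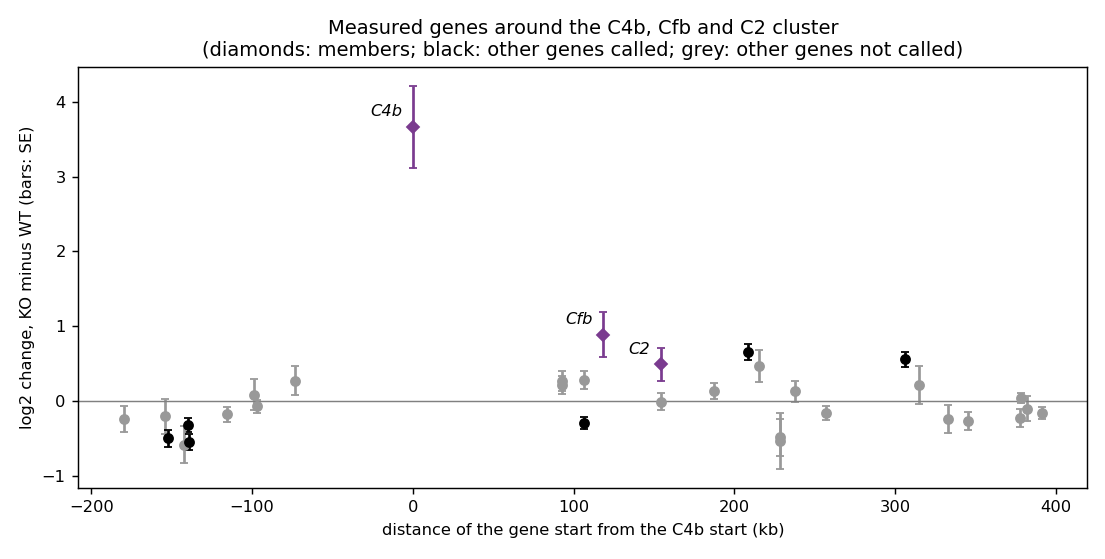
Each point is a measured gene within 250 kb of the C4b, Cfb and C2 cluster, placed by the distance of its start from that of C4b in kb, with the log2 change of KO minus WT and its SE on the vertical axis. C4b, at 3.67, stands above all other genes, and Cfb and C2, at 0.88 and 0.49, lie nearer to their neighbours, which run from -0.58 to 0.65.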

How the data were processed

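PolyA RNA of the mammary gland was sequenced from 7 KO and 5 WT mice, as pairs from an Illumina TruSeq mRNA kit per the labels. Per the submitters' processing notes, the tools were STAR 2.5.2b, RSEM 1.3.0, Trimmomatic 0.33, bcl2fastq 2.17 and limma 3.34.5, with the builds mm10 and hg19 named without a role. The authors deposited log2 CPM values that look quantile-normalized: at 67.1% of ranks the 12 libraries lay within 0.01 log2. Their table also holds, per the file headers, the authors' log2 fold change, a t statistic (a score) and p-values with adjusted p-values. The sources used here give no counts, depth or gene filter.

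The values were fitted by genotype over all 12 libraries with limma 3.58.1 (R 4.3.3, eBayes with trend and robust), and two-sided p-values were adjusted by Benjamini-Hochberg over all 11834 genes, called under 0.05. The fit was tested on simulated data. GENCODE M21 gave coordinates and merged exon lengths for 11489 genes by symbol (97.1%), and RefSeq gave promoters. Python 3.11.15 and matplotlib 3.10.9 drew the figures.

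Members, lists and tests were chosen with earlier results of these data known. Named genes are the 9 members, pathway genes by role, called genes of the neighbour and factor lists, and the 3 genes nearest to C3 and to C4b among those averaging 1 log2 CPM or more. The p-values set the group difference against the spread between these mice and treat the mice as independent. Labels do not state litters, so that independence is not known. Alternatives were the replicate number as a block, lactation day, day 10 alone, median centring, cyclic loess, filters at 1 and 3 log2 CPM, plain eBayes, library weights, each library left out, a threshold of 0.01, the authors' statistics and marker scores. Leaving out KO replicate 4 and WT replicate 1 together was chosen after seeing the data. Pseudocounts do not apply to log2 values. A further regulator is in the pathway counts but is not reported here. The marker lists for milk-secreting cells, B and plasma cells, endothelium and adipocytes gave 1 of 9, 0 of 3, 0 of 7 and 1 of 8 measured genes higher and 0, 0, 1 and 0 lower by limma. Of all genes, 4.84% were called higher and 4.52% lower.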

Additional observations from a re-analysis of the deposited data

Results flagged for a closer look

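Dixon's ratio at the 95% level was computed for 42 groups of 5 or 7 libraries, the KO and WT libraries of 21 complement genes, members included, and 4 groups had a library far from the others, where chance gives about 5% of groups. None was in a member. C1s1 in WT replicate 1 was at 2.14 log2 CPM, with the nearest WT library at 2.98. That library was also the lowest WT library for 6 members. C1qa in KO replicate 6 was at 3.62 log2 CPM, with the nearest KO library at 4.05. Cd93, a receptor linked to C1q, was at 3.48 log2 CPM in KO replicate 4, with the nearest KO library at 2.63. Susd4 in KO replicate 2 was at -1.35 log2 CPM, with the nearest KO library at -0.37.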

How the results depend on the processing

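Of the 8 measured members, 2 passed the threshold, a count from which nothing is read. It was 1 with the replicate block, plain eBayes, a threshold of 0.01, the fibroblast score, the skeletal muscle score and without both KO replicate 4 and WT replicate 1, settings that called 9.15%, 7.58%, 2.1%, 1.48%, 2.15% and 3.74% of all genes. By limma it was 0 with day 10 libraries alone (3 at an unadjusted p under 0.05) and 0 with the macrophage score (1 unadjusted), which called 2.26% and 0.101%. It ran from 1 to 4 with 1 library left out, where 4.72% to 11.2% of all genes were called. With the block Rela was not called (adjusted p = 0.147) and C1qc was (0.0395). Of 22 other pathway genes 6 were called, where 9.36% of all genes were. The count was 9 under the replicate block, 1 with day 10 libraries alone and 1 at a threshold of 0.01. It was 1 with the muscle score and 3 without both libraries. At a mean of at least 3 log2 CPM it was 3 of 10 tested, where 13.9% of the genes kept were called. By limma 0 were called with the macrophage score (6 unadjusted) or the fibroblast score (7 unadjusted), and 4 to 7 with 1 library left out. Of 15 neighbours 2 were called, and 6 of 30 in a window of 250 kb, where 9.36% of all genes were called. The neighbour count was 1 with the block, day 10 alone, a threshold of 0.01, the fibroblast or muscle score and without both libraries. At a mean of at least 3 log2 CPM it was 1 of 6 tested, where 13.9% of the genes kept were called. It was 0 by limma with the macrophage score (4 unadjusted) and 1 to 2 with 1 library left out. The cause of these shifts was not tested.

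Uncalled values turned sign under some settings. With the macrophage score C3 was at -0.40, C1ra at -0.10, Serping1 at -0.23, C1s1 at -0.038 and C3ar1 at -0.15. With the fibroblast score C3 was at -0.20, C1ra at -0.20, Serping1 at -0.24 and C1s1 at -0.026. With the muscle score C1ra was at -0.10 and Serping1 at -0.14, and without both libraries at -0.055 and -0.086. With 1 library left out Serping1 ran from -0.018 to 0.32 and Cd93 from -0.16 to 0.15. Cd93 was at 0.079 with the block, 0.019 with day 10 alone and 0.022 after cyclic loess. C4b, Cd59a and the 6 called genes of the rest of the pathway kept their direction in every setting run.

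Replicate numbers did not pair the mice: deviations of same-numbered libraries correlated between -0.17 and 0.21, and 2 of 5 numbers matched best with their own. Depth is unknown, so low genes such as C2 and Susd4 carry a counting error that cannot be given. A fit without the low-value filter of the deposited table was not run.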
